A study of Dorcoceras hygrometricum with 3 samples.

Results

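The regions described here are stretches of leaf DNA listed for the body of only 1 gene of Boea hygrometrica (labelled Dorcoceras hygrometricum). Their methylation level differed between a hydrated and a dehydrated leaf library. They were taken from 2 deposited tables of differing regions as the entries assigned to a gene body whose scaffold, start and end occurred for 1 gene only in their table. This gave 1162 of 2690 distinct regions in the table for 70% relative water content (RWC) and 1336 of 3093 in the table for 10% RWC, in all 2498 of 5783. The choice used the assigned part of the gene and the coordinates, not the levels, although every region in the tables had been selected by the authors for a difference. Their closest counterparts are the regions listed upstream or downstream of only 1 gene, 1062 at 70% RWC and 1208 at 10% RWC, called flanks below. Each gene is listed once, so a further gene at the same place that is listed with another region would not show.

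Boea hygrometrica is a resurrection plant: its leaves can dry out almost completely and revive after watering. DNA came from leaf tissue of potted plants in 3 conditions: hydrated leaves, leaves dehydrated to 70% RWC (moderate dehydration) and leaves dried to 10% RWC (desiccated). There was 1 bisulfite library per condition, and both tables use the same hydrated library. The labels give neither the number of plants nor whether they were pooled, and the treatment has no replicate check: each difference is between 2 libraries, so that no p-value is given and dehydration cannot be told apart from differences between plants or library preparations.

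Plants methylate cytosines in CG, CHG and CHH contexts (H is A, C or T). Methylation within the transcribed part of a gene, gene body methylation, is in many flowering plants mostly in CG context and found in long, steadily expressed genes, whereas transposons, inside introns or beside genes, carry methylation in all contexts and are kept silent by it. In Arabidopsis, small RNAs made by Dicer proteins and bound by Argonaute proteins can direct new methylation to matching DNA. The tables give no context, coverage or strand, so body methylation of these kinds could not be separated, and the depth behind each level is unknown. A methylation level is a fraction from 0 to 1, the average of a region in 1 library.

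At 70% RWC most of the gene body regions had a higher methylation level than in the hydrated library. The level was higher in 824 and lower in 338, a higher share of 70.9% (exact 95% binomial interval 68.2 to 73.5), against 70.4% over all distinct regions of the table. The 70% RWC share in the bodies is therefore near the background of its table. The regions of higher level had medians of 0.14 before and 0.34 after dehydration and differed by a median of 0.20 (quartiles 0.15 and 0.28). The regions of lower level had medians of 0.32 and 0.12 and differed by a median of -0.20 (quartiles -0.27 and -0.13). Intervals of shares cover counting only, and regions are not replicates of a condition.

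At 10% RWC gains outnumbered losses in gene bodies, while they were about even in the flanks. The level was higher in 823 regions and lower in 513, a share of 61.6% (58.9 to 64.2), against 55.9% over all distinct regions of that table. The higher regions had medians of 0.10 before and 0.26 after drying and differed by a median of 0.17 (quartiles 0.12 and 0.24). The lower regions had medians of 0.35 and 0.15 and differed by a median of -0.20 (quartiles -0.28 and -0.14). Losses were thus fewer than gains, with a larger median difference of levels.

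**Figure D1:**
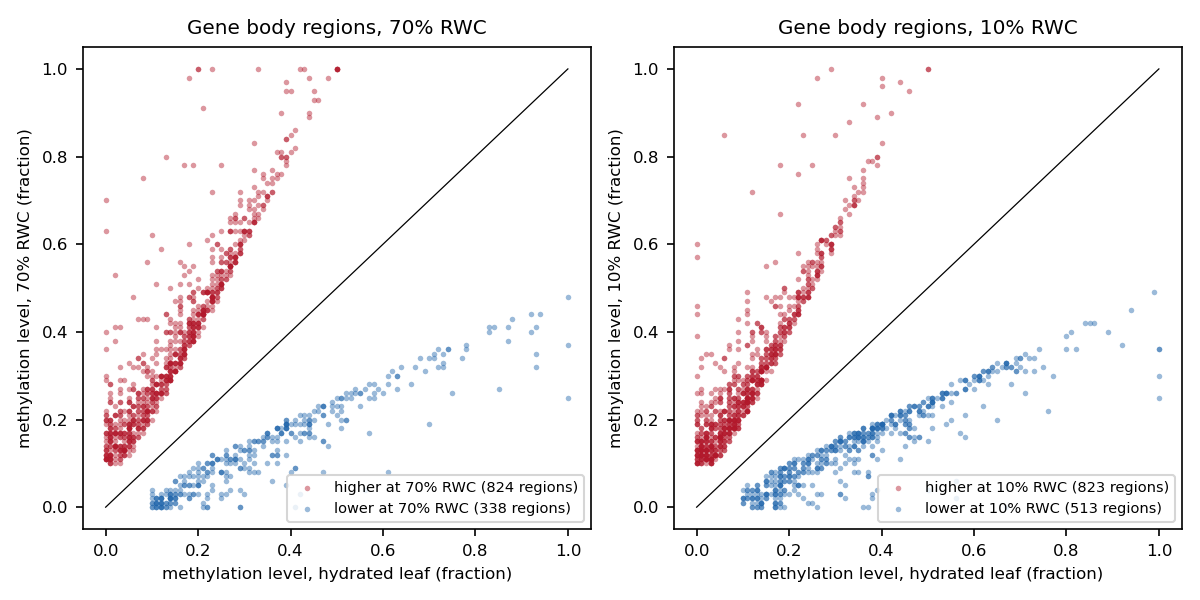
Methylation level (fraction) of each gene body region in the hydrated leaf, on the x axis, against its level at 70% RWC (left) or 10% RWC (right), on the y axis; each point is 1 region, red where the dehydrated level is higher and blue where it is lower, and the line marks equal levels. The empty wedge around the line is the authors' selection, and red points outnumber blue ones by 824 to 338 on the left and by 823 to 513 on the right.

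The flanks set the gene bodies apart at 10% RWC. In the flanks the share of higher level was 50.2% at 10% RWC (606 of 1208, 47.3 to 53.0), 49.2% upstream and 51.4% downstream. The bodies exceeded the flanks by 11.4 percentage points (95% normal interval of the difference 7.60 to 15.3). At 70% RWC the flanks were at 69.4% (66.5 to 72.2), and the difference of 1.51 points had an interval from -2.29 to 5.32. Among regions that differed by at least 0.3 it was 10.7 points (3.29 to 18.2). Whether the body effect differs between the 2 water contents was not tested, since both comparisons share the hydrated library. The median differences were smaller in bodies than in flanks, where the gain had a median of 0.24 at 70% RWC and 0.21 at 10% RWC, and the loss one of -0.25 and -0.27.

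Large differences were a minority of the body regions. At 70% RWC 252 body regions differed by at least 0.3, of which 185 were higher, against 67.1% of all distinct regions of that size. At 10% RWC 224 did, of which 120 were higher (53.6%, 46.8 to 60.2, which includes an even split), against 40.9% of all distinct regions of that size. Differences of at least 0.5 were found in 42 body regions at 70% RWC, 30 of them higher, and in 30 at 10% RWC, 20 of them higher. Most of all distinct regions of that size were gains at 70% RWC too, and at 10% RWC 43 of 83 were. The extremes of the scale were rarely reached. A level listed at 0 in the hydrated leaf was found for 33 regions at 70% RWC and 41 at 10% RWC, and a level of 1 in the dehydrated leaf for 11 and 3. Over all distinct regions these counts were 109 and 105 at a level of 0, and 18 and 10 at a level of 1.

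The level of a region separated bodies from flanks most where methylation was high. The higher of the 2 levels of a region was used to group them, which treats gains and losses alike. At 10% RWC the share of higher regions in the bodies was 70.3% at levels from 0.1 to below 0.2, 70.8% from 0.2 to below 0.3, 53.1% from 0.3 to below 0.5 and 51.2% at 0.5 and above. The flanks went from 72.4% through 59.6% and 50.5% to 31.8% over the same groups. Weakly methylated stretches were thus mostly gains in both places, while strongly methylated ones were about even in bodies and mostly losses in flanks. Between the groups at the ends the share differed by -19.1 points in the bodies (-26.9 to -11.3) and -40.6 in the flanks (-48.3 to -32.9), and the difference between these was 21.5 points (10.5 to 32.4). In the highest group the bodies exceeded the flanks by 19.4 points (11.6 to 27.3). From 0.2 to below 0.3 they did so by 11.2 points (2.91 to 19.5). From 0.3 to below 0.5 the difference was 2.64 points (-4.15 to 9.44), and in the lowest group it was -2.05 points (-9.71 to 5.60).

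At 70% RWC the bodies leaned toward gains at every level. The shares were 67.7%, 70.5%, 70.5% and 74.6% in order of level, with a difference of 6.84 points between the ends (-0.835 to 14.5). The flanks had 59.1%, 73.3%, 77.4% and 61.8%. In the highest group the bodies exceeded the flanks by 12.8 points (5.47 to 20.1), and in the group from 0.3 to below 0.5 they were below them, at -6.95 points (-13.1 to -0.809). These opposite differences leave the shares over all levels close to each other. How the number of reads varies with level was not measured in these tables.

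The regions were short pieces of their genes. Their median length was 338.5 bp at 70% RWC (range 201 to 1702) and 346 bp at 10% RWC (201 to 2138), in genes of median length 3735.5 bp and 3809 bp. A region covered a median of 9.09% of its gene in both tables, and over 50% of it in 42 and 48 cases. Wholly between the ends of the gene were 975 regions at 70% RWC (83.9%) and 1154 at 10% RWC (86.4%), and the remaining 187 and 182 ran over an end. Few of these lay mostly outside: under 50% of the region was inside the gene in 4 cases at 70% RWC and 6 at 10% RWC.

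Genes with a body region were longer and more often described than genes with a flank region. The median gene length of the flanks was 1877 bp at 70% RWC and 1845.5 bp at 10% RWC. A functional description was present for 655 body genes at 70% RWC (56.4%) and 772 at 10% RWC (57.8%), against 41.6% and 41.1% of the flank genes. Whether the longer bodies gave more room for a region was not tested. The lists give each gene once, with no word on how the region of a gene with several was chosen.

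**Figure D2:**
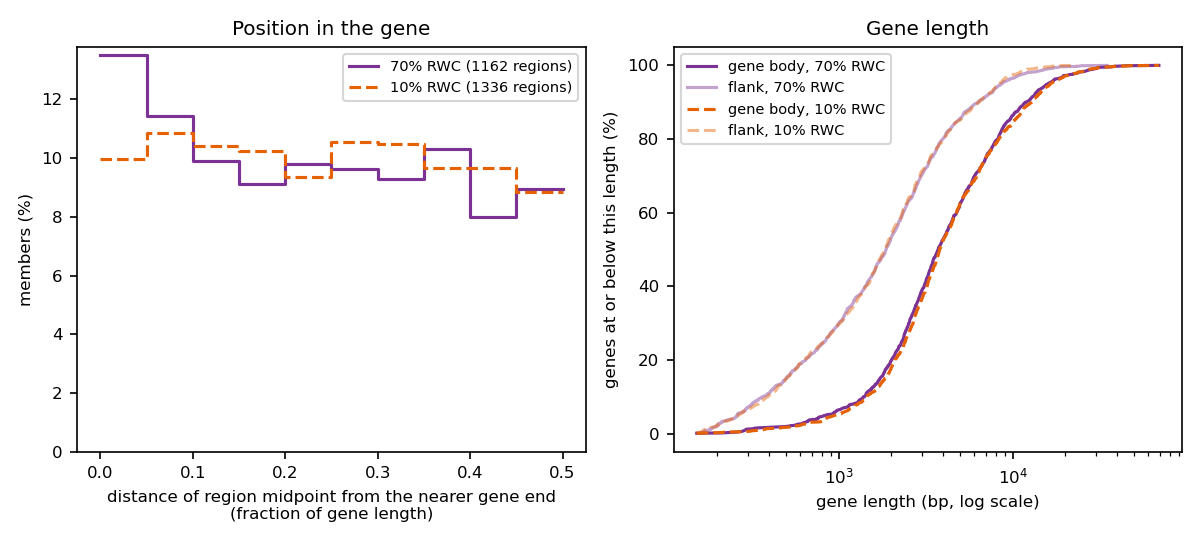
Left, share of the gene body regions (%) by the distance of the region's midpoint from the nearer end of its gene, as a fraction of gene length, from 0 at an end to 0.5 in the middle, for 1162 regions at 70% RWC and 1336 at 10% RWC. Right, cumulative share of genes (%) by gene length in bp on a log axis, for body and flank regions; the body curves lie to the right of the flank curves, with medians of 3735.5 and 3809 bp against 1877 and 1845.5 bp.

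Regions were found all along the gene body. Because strand is not in the tables, position was measured from the nearer gene end. For single named genes below, a position in % of the gene is counted from the lower scaffold coordinate. It does not give the direction of transcription. The median position was 0.233 of the gene length at 70% RWC and 0.247 at 10% RWC, where an even spread of midpoints would give 0.25. An even spread of midpoints would put 1 in 5 within 0.1 of an end. There lay 290 of the 1162 regions at 70% RWC (24.96%) and 278 of the 1336 at 10% RWC (20.8%). A region wholly inside its gene cannot have its midpoint at the very end. With position measured over the placements possible for such regions, the end group held 243 of 975 at 70% RWC. At 10% RWC it held 261 of 1154. Both counts are above 1 in 5, and this excess was not tested.

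Direction varied little with position at 70% RWC, and at 10% RWC the answer depended on how regions and position were taken. At 70% RWC the share of higher level was 71.7% within 0.1 of an end, then 68.8%, 71.7% and 72.4% in the following steps of 0.1, and 69.5% next to the middle. At 10% RWC it was 64.7%, 62.3%, 60.2%, 60.6% and 59.9%. Regions within 0.25 of an end differed from those further in by -0.416 points at 70% RWC (-5.65 to 4.82) and by 5.01 points at 10% RWC (-0.203 to 10.2), and both intervals include 0. Among regions wholly inside the gene the 10% RWC difference was 5.99 points (0.391 to 11.6). With position measured over the possible placements it was 1.66 points (-3.67 to 6.98). Weighted by region length it was 7.44 points (2.27 to 12.6), with an interval that uses unweighted counts and does not allow for the weights. Across regions Spearman's rho between position and the signed difference was 0.007 at 70% RWC (n = 1162) and -0.015 at 10% RWC (n = 1336), as a description of points that share the same libraries.

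A few genes could be given a direction of transcription, because the other table lists a region upstream or downstream of them. In 455 of 455 genes with flank regions in both tables the strand read in this way was the same. There were 66 such body regions at 70% RWC and 61 at 10% RWC. Counted in 5 equal steps of gene length from the 5′ end, 10 of 16, 8 of 12, 7 of 10, 7 of 12 and 10 of 16 were higher at 70% RWC. At 10% RWC the counts were 6 of 12, 6 of 9, 6 of 9, 10 of 16 and 10 of 15. With this few regions a difference between the 5′ and 3′ ends was not detectable.

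Longer genes had a larger share of gains at 10% RWC. The genes were parted into 4 length groups of like size at 2367.5, 3775.5 and 7034 bp. The share of higher level was 55.8% in the shortest group (179 of 321), 61.5% and 62.0% in the middle ones and 66.9% in the longest (222 of 332), and the longest exceeded the shortest by 11.1 points (3.68 to 18.5). The same order was seen among strongly methylated regions, with 45.3%, 52.4%, 52.8% and 58.3% where the higher level was at least 0.3. Below 0.3 the shares were 64.9%, 70.3%, 71.6% and 75.6%. Under 1000 bp 44 of 70 regions were higher (62.9%, 50.5 to 74.1), while genes of 10000 bp or more had 143 of 210 (68.1%, 61.3 to 74.3). Genes under 1000 bp differed from those of 5000 bp or more by -2.33 points (-14.4 to 9.74). These intervals are too wide to say whether the relation extends to the very short genes.

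At 70% RWC the length groups had 68.1%, 72.0%, 68.9% and 74.7%, with 6.57 points between the ends (-0.670 to 13.8). The shortest minus the longest group was -12.7 points (-22.9 to -2.54) among regions that differed by at least 0.2, and -12.0 (-21.7 to -2.33) where the higher level was at least 0.3. At 70% RWC the relation with gene length thus depends on which regions are taken. In the flanks at 10% RWC the shares were 49.7%, 50.5%, 50.9% and 52.0%, a difference of 2.38 points (-8.15 to 12.9). The excess of the body difference over the flank difference at 10% RWC was 8.72 points (-4.16 to 21.6), so the relation with gene length was not shown to be particular to bodies. Bodies exceeded flanks at 10% RWC within the second (11.1 points, 2.54 to 19.6), the third (11.1, 1.88 to 20.3) and the longest group (14.8, 3.71 to 25.9). In the shortest group the difference was 6.10 points (-0.421 to 12.6).

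**Figure D3:**
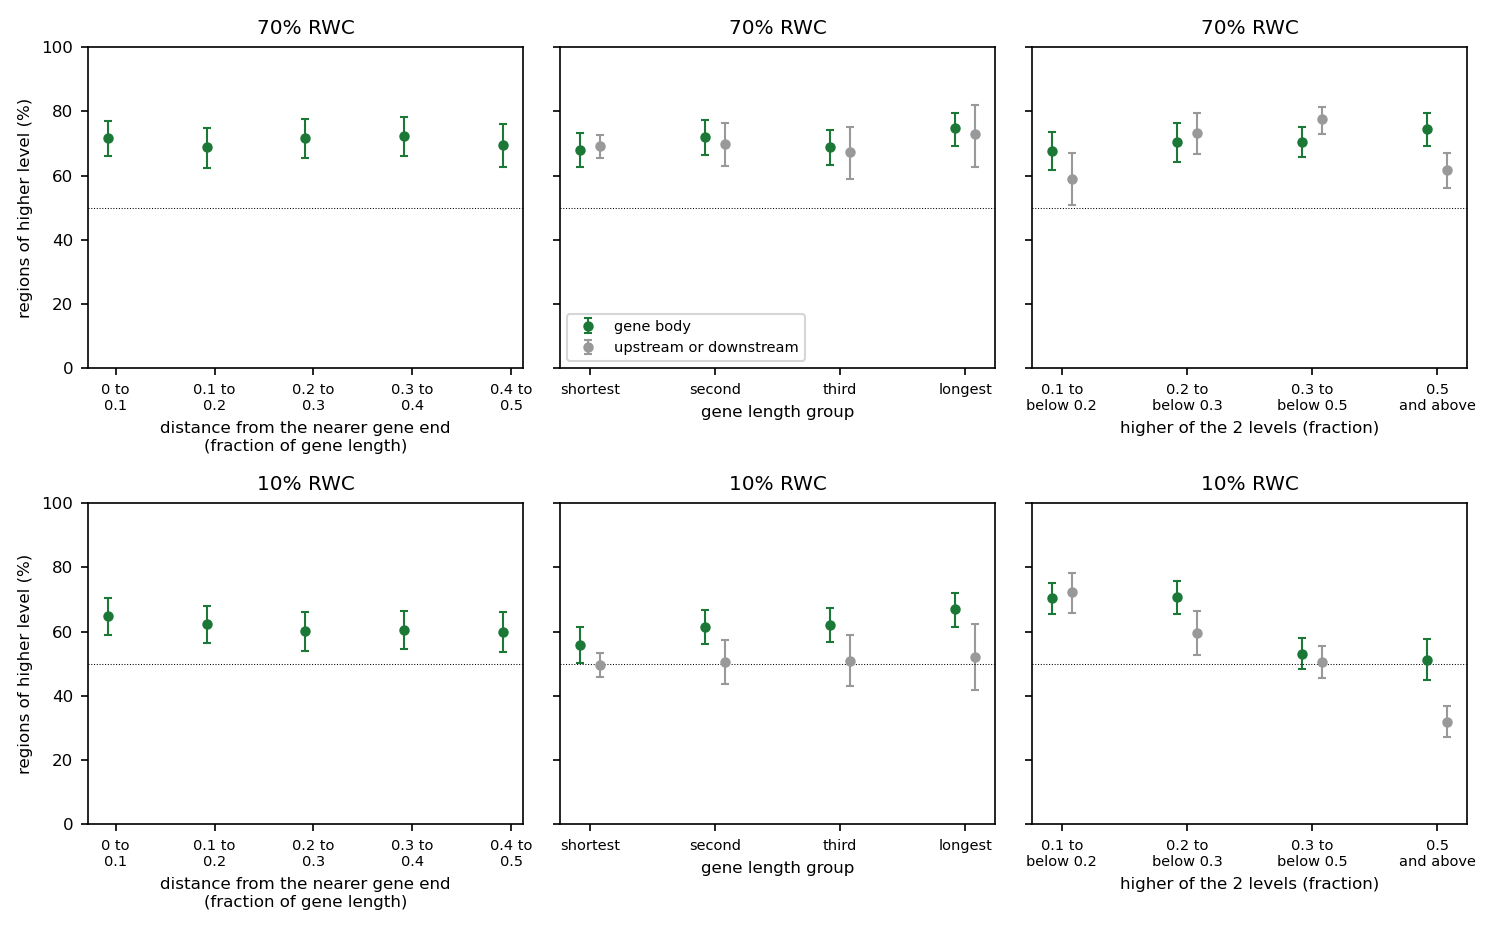
Share of regions with a higher level in the dehydrated leaf (%) at 70% RWC (top) and 10% RWC (bottom), by position in the gene, gene length group, and the higher of the 2 levels; green is gene body, grey is upstream or downstream, bars are exact 95% binomial intervals and the dotted line marks equal gains and losses. At 10% RWC the green points lie above the grey ones in every length group and in every level group but the lowest. The distance is largest at levels of 0.5 and above, where they are at 51.2% and 31.8%.

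The largest gains at 70% RWC ended at high levels, which a gain of this size requires. Bhs12233_001V1.1 (scaffold12233, 3350 to 3681), a gene without a description, had 0.20 in the hydrated and 1 in the dehydrated library, in which order each pair of levels is given. Bhs2051_001V1.1 had 0.18 and 0.98. Among described genes the first was Bhs6817_001V1.1, which encodes an antenna protein of photosystem I that binds chlorophyll. Its region (scaffold6817, 9554 to 9992) lies over one end of the gene and had 0.21 and 0.91. The next was Bhs5545_005V1.1, weakly matched (7e-07) to a pyrimidine deaminase and tRNA pseudouridine synthase, with 0 and 0.63. In Bhs862_041V1.1, a subunit of the factor that cleaves transcripts before polyadenylation, the level was 0.19 and 0.78. Bhs152_011V1.1, matched to PWP2, a protein of ribosome assembly known from yeast, had 0.25 and 0.78. Bhs183_008V1.1, matched to Pelota, which rescues stalled ribosomes, had 0.32 and 0.83. These gains were chosen by size and lie well above the median gain of 0.20.

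The largest losses at 70% RWC started from high levels, which a loss of this size requires. Bhs1761_010V1.1 (scaffold1761, 283410 to 283612) had 1 and 0.25, and Bhs1717_001V1.1 had 1 and 0.37. Neither gene has a description. Bhs710_026V1.1, an RNA helicase of the UAP56 family, which acts in splicing and mRNA export, had 0.93 and 0.41. Bhs20_016V1.1, matched to BRI1, the brassinosteroid receptor kinase, had 0.94 and 0.44 in a region at 92.0% of the gene. Bhs5545_013V1.1, matched to retinoblastoma, a brake on the cell cycle, had 0.87 and 0.38. Both directions thus occurred in genes of RNA handling.

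At 10% RWC the largest gains of described genes were smaller than at 70% RWC. Bhs1547_001V1.1, without a description, had 0.06 and 0.85. Bhs2059_003V1.1, with a weak match (E value 3e-10) to a subunit of splicing factor 3B, had 0.30 and 0.85. Bhs672_006V1.1, described as mixed lineage kinase domain-like, had a long region of 1473 bp at 0 and 0.44. Bhs189_023V1.1, matched to PIAS, a ligase of the small protein SUMO, had 0.37 and 0.79. Bhs141_046V1.1, the gamma subunit of translation initiation factor eIF-2B, had 0.36 and 0.77. The long region of Bhs672_006V1.1 covers 28.8% of its gene, where most body regions cover far less.

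The largest losses at 10% RWC again began at high levels, as losses of this size must. Bhs9095_001V1.1 had 1 and 0.25, and Bhs4353_003V1.1 had 0.67 and was then listed at 0. Bhs342_025V1.1, an RNA helicase matched to DHX36, which unwinds G-quadruplexes in animals, had 1 and 0.36 in a region at 6.17% of a gene of 25259 bp. Bhs734_035V1.1, an auxin efflux carrier, had 0.84 and 0.42. Bhs150_032V1.1, with a weak match (E value 4e-17) to EFR, the Arabidopsis receptor of a bacterial elongation factor, had 0.80 and 0.36. Bhs107_085V1.1, with a weak match (4e-10) to the ClpB disaggregase, had 0.65 and 0.20.

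Described genes were sorted by keyword into 18 functional lists, with 336 genes in at least 1 list at 70% RWC and 400 at 10% RWC. Over all entries with a described gene, in bodies and flanks, 72.6% were higher at 70% RWC and 56.7% at 10% RWC; over described body genes the counts were 467 of 655 (71.3%) and 472 of 772 (61.1%). The counts of most lists lay near these shares, with wide intervals. No list was tested, and no count below shows that a list stands apart.

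Genes that guard, copy and package DNA were mostly of higher level, as were 71.3% and 61.1% of all described body genes. The repair, replication and recombination genes had 22 of 28 higher at 70% RWC (78.6%, 59.0 to 91.7) and 27 of 35 at 10% RWC (77.1%, 59.9 to 89.6). The description SLX1, a nuclease known from yeast that cuts branched DNA, accounted for many of these, with 11 of 15 and 10 of 13 higher, and 4 of its matches were weak in each table. In Bhs119_064V1.1, one of them, the level was 0.39 and 0.79 at 70% RWC. DNA topoisomerase III, which untangles recombining strands, was found for 6 body genes at 10% RWC, 5 of them higher, the largest gain being 0.29 and 0.60 in Bhs1215_002V1.1. The largest loss of the list at 70% RWC was also in a topoisomerase III gene, Bhs253_015V1.1, with 0.77 and 0.34. At 10% RWC it was in Bhs312_005V1.1, matched to RAD16, a yeast protein of nucleotide excision repair, with 0.61 and 0.29. Chromatin genes had 11 of 13 higher at 70% RWC and 14 of 19 at 10% RWC. Of these, the SWD3 matches, a subunit of the COMPASS methyltransferase of histone H3 in yeast, made up 8 and 7, of which 7 and 5 were higher. Most of these matches are weak, 6 of 8 at 70% RWC and 5 of 7 at 10% RWC.

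Genes of small RNA silencing, which can direct DNA methylation, were few. There were 3 single-gene body regions in each table, 2 of them higher. Bhs1722_006V1.1, an endoribonuclease Dicer, had 0.11 and 0.28 at 70% RWC in a region at 1.53% of its length, counted from the lower coordinate. A second stretch of its body, at 10% RWC, had a loss, with 0.28 and 0.10. This stretch was listed for a further gene too and is not counted. A second Dicer gene, Bhs455_022V1.1, had 0.16 and 0 at 70% RWC and, over overlapping boundaries, 0.19 and 0.04 at 10% RWC. Bhs7185_001V1.1, an argonaute, had 0.15 and 0.35 at 10% RWC and 0.11 and 0.23 at 70% RWC in a stretch that begins where the other ends. The third region at 10% RWC lay in Bhs5_092V1.1, another argonaute, with 0.07 and 0.22. Of the 2 Dicer genes at 70% RWC one had a gain and the other a loss.

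Most body genes of RNA processing and of translation had a higher level, as did 71.3% and 61.1% of all described body genes. Splicing and RNA processing had 15 of 17 at 70% RWC (88.2%, 63.6 to 98.5) and 17 of 23 at 10% RWC (73.9%, 51.6 to 89.8). The largest loss in each table was at a weak match to subunit 11 of the Integrator complex, which cleaves small nuclear RNAs in animals, although other matches to it were higher. In Bhs33_001V1.1 the level was 0.37 and 0.12 at 70% RWC, and in Bhs511_009V1.1 it was 0.74 and 0.36 at 10% RWC. Translation had 14 of 19 and 7 of 10, from a gain in Bhs1494_009V1.1, an initiation factor IF-2 (0.14 and 0.50 at 70% RWC), to a loss in the threonyl-tRNA synthetase Bhs62_008V1.1 (0.55 and 0.23 at 70% RWC).

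Signalling kinases formed one of the largest lists. Receptor and protein kinases had 34 of 53 higher at 70% RWC (64.2%, 49.8 to 76.9) and 44 of 77 at 10% RWC (57.1%, 45.4 to 68.4). Their intervals include the shares of all described body genes. By match, BRI1, the brassinosteroid receptor, had 6 of 7 and 9 of 10 higher, and BAK1, its co-receptor, had 1 of 5 and 3 of 6. PBS1, a kinase that plant immune receptors guard, had 6 of 8 at 70% RWC and 6 of 15 at 10% RWC. These counts are small, and differences between the matches were not tested. Disease resistance genes had 4 of 8 and 4 of 10 higher; RPM1, an immune receptor of Arabidopsis, made up most of them, with 3 of 6 and 3 of 9. Examples are Bhs5910_008V1.1 with 0.33 and 0.67 at 70% RWC and Bhs4194_002V1.1 with 0.71 and 0.35. Such genes form large families of related copies, so that reads may have been placed on either of 2 copies, and these genes are uncertain.

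Transporters, which move solutes across membranes, had 41 of 59 higher at 70% RWC and 38 of 64 at 10% RWC, near the shares of all described body genes. Bhs2524_002V1.1, a borate transporter, had 0.37 and 0.81 at 70% RWC, and over nearly the same bases 0.27 and 0.61 at 10% RWC. Bhs10305_004V1.1, a KUP potassium transporter, had 0.36 and 0.73 at 10% RWC. Bhs1119_038V1.1, an ABC transporter of subfamily B, which in plants includes auxin carriers, had 0.63 and 0.30 at 70% RWC. Transcription factors had 20 of 30 and 20 of 39 higher. Among them Bhs1626_010V1.1, a TGA factor of salicylic acid responses, had 0.33 and 0.69 at 70% RWC, and Bhs24_006V1.1, matched to MYC2, the main factor of jasmonate responses, had 0.69 and 0.31 at 10% RWC.

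Genes with a known place in drying leaves were few and went both ways, as described genes did in general. Gains made up 71.3% and 61.1% of all described body genes, and the interval of each list here includes the share at its water content. Abscisic acid is the hormone of water deficit, and 1 of 3 of its genes was higher at 70% RWC and 2 of 5 at 10% RWC. Bhs992_029V1.1, matched to the ABA responsive element binding factors, had 0.21 and 0.44 at 70% RWC. Bhs1259_002V1.1, with the same match, had 0.51 and 0.25 at 70% RWC and 0.39 and 0.15 at 10% RWC. Zeaxanthin epoxidase catalyses an early step of abscisic acid synthesis, and Bhs7_038V1.1, weakly matched to it (3e-14), had 0.08 and 0.18 at 10% RWC and, at another stretch, 0.11 and 0.02 at 70% RWC. Chaperones had 7 of 12 and 9 of 12 higher, and oxidative stress genes had 10 of 13 and 10 of 14. Bhs7640_001V1.1, a Cu/Zn superoxide dismutase, which removes superoxide, had 0.27 and 0.59 at 70% RWC and 0.25 and 0.50 at 10% RWC. Sugar and starch genes had 5 of 5 and 6 of 8, among them Bhs4909_003V1.1, a trehalose-phosphate synthase, with 0.11 and 0.45 at 10% RWC. The sucrose synthase Bhs983_003V1.1 had 0.33 and 0.16.

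The remaining lists covered photosynthesis, the cell's transport machinery and its wall. All 4 photosynthesis genes were higher in each table. The interval, 39.8 to 100%, includes the share of all described body genes. Of their matches 2 at 70% RWC and 1 at 10% RWC were weak. Bhs4601_002V1.1, of light-harvesting complex II, had 0.12 and 0.26 at 10% RWC. Ubiquitin and proteasome genes had 20 of 31 and 17 of 31, and 18 and 14 of their matches were weak. The largest gain was in Bhs109_014V1.1, weakly matched to synoviolin, a ligase of misfolded proteins (0.45 and 0.95 at 70% RWC). Vesicle trafficking had 10 of 14 and 8 of 12. Cytoskeleton and motor genes had 11 of 15 at 70% RWC and 7 of 15 at 10% RWC. Cell wall genes had 8 of 11 and 13 of 20. Cellulose synthase genes included a gain in Bhs448_007V1.1 (0.28 and 0.56 at 70% RWC) and a loss in Bhs1894_001V1.1 (0.52 and 0.26 at 70% RWC), and the pectinesterase gene Bhs983_005V1.1 had 0.70 and 0.34 at 10% RWC.

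**Figure D4:**
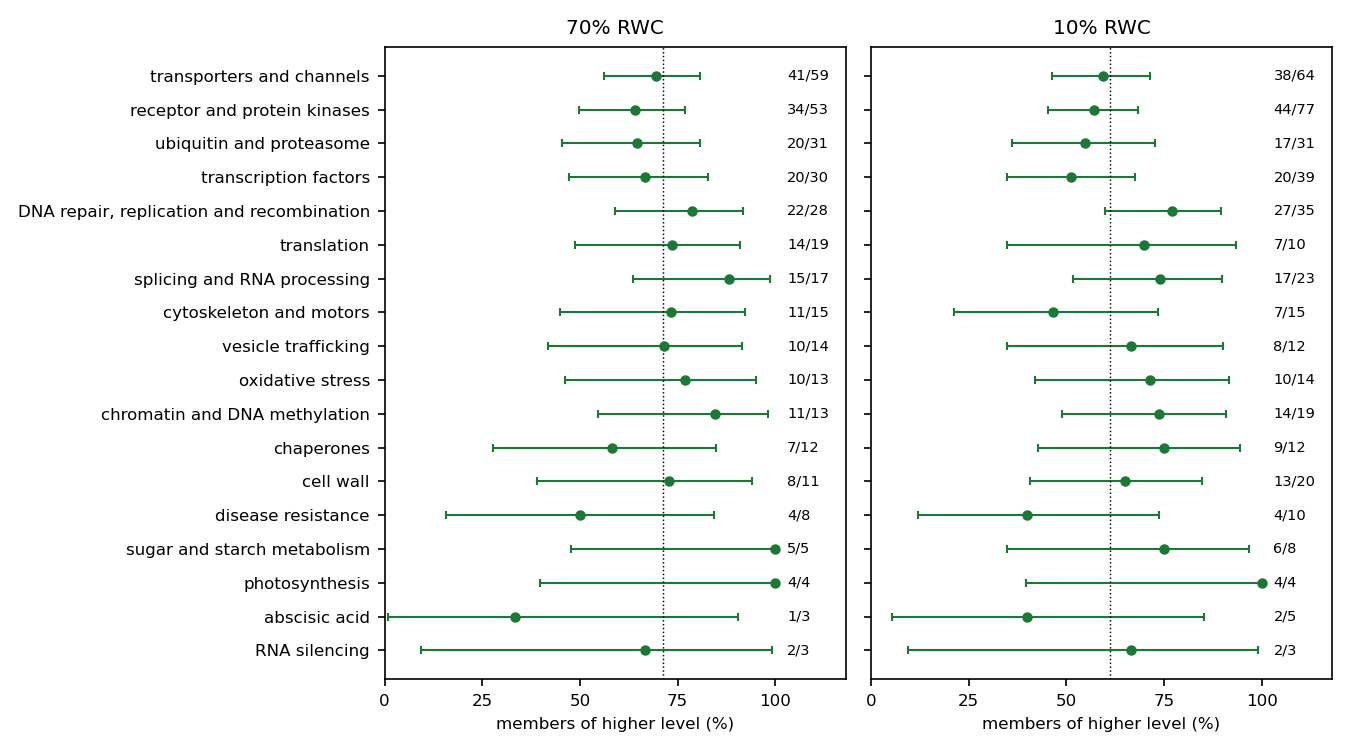
Share of body genes with a higher level in the dehydrated leaf (%) in each of 18 functional lists at 70% RWC (left) and 10% RWC (right), with exact 95% binomial intervals and the counts of higher genes of all in the list; the dotted line is the share of all described body genes, 71.3% and 61.1%. Lists lie on both sides of the line, and the interval of every list crosses it.

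Some body genes were listed in both tables, which gives levels at 3 water contents. Of the body genes 406 had such a region in each table (34.9% of those at 70% RWC and 30.4% of those at 10% RWC). In 50 the boundaries were the same, in 235 they differed but overlapped, and in 121 the tables gave separate stretches of the gene. Genes of 645 body regions at 70% RWC and 829 at 10% RWC were not in the other table.

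In the 50 regions with the same boundaries, the levels at 70% and 10% RWC were mostly close to each other. Being listed at both water contents with equal boundaries can itself select alike dehydrated levels, so the closeness describes these 50 only. Read against the shared hydrated library, 45 were higher and 5 lower, and being listed in both tables had required a difference in each. Gains made up 70.9% of all gene body regions in the table for 70% RWC and 61.6% in the table for 10% RWC. The share of gains among flanks with equal boundaries was not computed. The larger share in the 50 was therefore not shown to be particular to bodies. The median levels of the 50 in the hydrated, 70% RWC and 10% RWC libraries were 0.17, 0.34 and 0.315. From 70% to 10% RWC the level was higher at 70% RWC in 30, higher at 10% RWC in 16 and equal in 4. The median change was -0.01 (quartiles -0.04 and 0.02), and 36 of the 50 changed by at most 0.05. The range was from -0.32 to 0.11. The hydrated level was the same in both tables for 49 of them.

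Individual regions show how close the 2 dehydrated levels were, and the exceptions. Bhs3229_002V1.1, an ABC transporter of subfamily C, a family that loads the vacuole, had 0.32, 0.70 and 0.68 in the hydrated, 70% RWC and 10% RWC libraries (scaffold3229, 29255 to 29504). In Bhs730_008V1.1, a syntaxin of membrane fusion, the levels were 0.27, 0.59 and 0.61. Bhs574_033V1.1, without a description, had 0.39, 0.78 and 0.80. In these the 2 dehydrated levels lay within 0.05 of each other. The largest difference between them was in Bhs710_034V1.1, an aarF domain kinase, a family that acts in plastids and mitochondria, with 0.17, 0.78 and 0.46 (scaffold710, 194804 to 195081). Bhs446_006V1.1, a multiple RNA-binding domain protein, had 0.29, 0.72 and 0.60. Bhs149_013V1.1 went the other way, with 0.11, 0.38 and 0.49. Among the 5 of lower level, Bhs10299_001V1.1, a subunit of the cytosolic chaperonin that folds actin and tubulin, had 0.22 and was listed at 0 and then at 0.07.

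**Figure D5:**
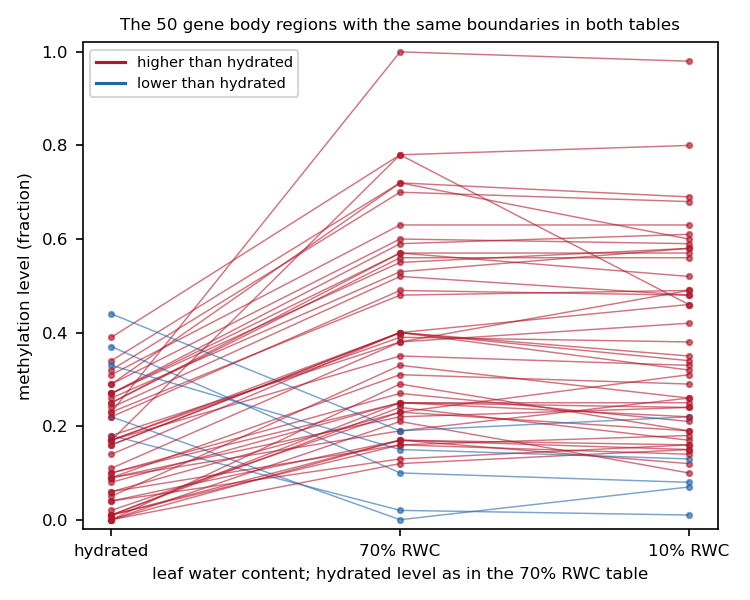
Methylation level (fraction) of the 50 gene body regions with the same boundaries in both tables, in the hydrated, 70% RWC and 10% RWC libraries; each line is 1 region, red where it is higher than hydrated and blue where it is lower. Most lines run flat between 70% and 10% RWC, where the median change is -0.01, and the largest decrease is -0.32.

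Where the tables gave separate stretches of a gene, the listed pieces could differ in direction. The gap between the 121 pairs of stretches had a median of 749 bp (quartiles 194 and 2458). In Bhs963_016V1.1, without a description, a stretch had 0 and 0.70 at 70% RWC, and a stretch 102 bp away had 1 and 0.36 at 10% RWC. In Bhs685_077V1.1, weakly matched (3e-11) to centromeric protein E, stretches 2 bp apart had 0.29 and 0.63 at 70% RWC and 0.57 and 0.29 at 10% RWC. In Bhs7881_001V1.1, a 70 kDa heat shock protein, a stretch at 90.5% of the gene had 0.78 and 0.37 at 70% RWC, and one at 36.5% had 0.27 and 0.58 at 10% RWC. Bhs725_010V1.1, an Xaa-Pro aminopeptidase of 36726 bp, had 0.39 and 0.95 at 70% RWC and, 1168 bp away, 0.28 and 0.11 at 10% RWC. These pairs were chosen as the largest contrasts between stretches, and each stretch has no listed level at the other water content. Place in the gene and water content differ together in such a pair and cannot be told apart.

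Very short and very long genes mark the ends of the range. The shortest, Bhs19053_001V1.1, is a fragment of 153 bp weakly matched (2e-11) to an endoglucanase, and its region of 639 bp covers it wholly, with levels of 0.16, 0.40 and 0.35 in the hydrated, 70% RWC and 10% RWC libraries. A region also covered all of Bhs10886_001V1.1, of 288 bp, with 0.61 and 0.08 at 70% RWC. The longest, Bhs2538_003V1.1, spans 69266 bp, and its regions cover 0.619% and 0.355% of it, with 0.21 and 0.43 at 70% RWC and, at another stretch, 0.05 and 0.20 at 10% RWC. Bhs1011_005V1.1, of 45601 bp and matched to a DNA helicase, had overlapping regions across its end, at 0.17 and 0.53 at 70% RWC and 0.13 and 0.42 at 10% RWC. Regions were compared along scaffolds as well. Of neighbouring body regions within 20 kb, 54 of 102 pairs had the same direction at 70% RWC (52.9%, 42.8 to 62.9), where the shares alone give 58.7%. At 10% RWC 70 of 116 did (60.3%, 50.8 to 69.3), where the shares alone give 52.7%.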

How the data were processed

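Leaf DNA of 1 library per condition was measured in 3 conditions. Per the labels' protocols, sonicated DNA received methylated adaptors before bisulfite treatment with a kit and PCR. The deposited methylation level is a fraction, per the file headers an average over a region in each library, given with 2 decimals. The genome build, aligner, region caller, context and coverage were not given in the sources used here. From the values, the higher level was at least 0.1, the ratio of levels at least 1.91, and regions at least 201 bp long. Each gene occurs once, 3177 at 70% RWC and 3660 at 10% RWC, and the direction given by the authors was that of the difference in every case.

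From these files, members were found by label and coordinates. Each gene end was set to start plus length minus 1, since the deposited end differed for 33 and 93 body regions. Some regions assigned to flanks overlap their gene too, 193 of 1770 and 218 of 2042, by at most 49.8% of the region. The 18 lists come from keywords in the first KEGG match of a gene and refined after the descriptions had been seen; matches with an E value above 1e-20 are called weak. Genes named are the largest gains and losses, among all and among described genes and per list, the longest, shortest and most covered genes, and regions with the same boundaries and the largest changes or differences. Matches named by description count, the pairs of separate stretches, the second argonaute gene and some of the regions at 3 water contents were chosen after their values were seen. The members and lists were chosen with earlier results of these data known. With 1 library per condition no test was run. Intervals are exact (Clopper-Pearson, 95%) for shares and normal for differences of shares, for counting error only. The scripts were tested on simulated data. Alternatives were a minimum difference of 0.2 or 0.3, 1 region per scaffold, regions wholly inside the gene or outside the other table's regions, weighting by length, log2 ratios with 0.01 added, and other groupings of position, length and level. The tools were scipy 1.17.1, matplotlib 3.10.9, numpy 2.4.6 and pandas 2.3.3 under Python 3.11.15.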

Additional observations from a re-analysis of the deposited data

How the results depend on the processing

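Of 100 values under an alternative, 79 stayed within their interval or spread and 21 moved, none of them with a called value changing sign. The median differences move by construction with a minimum difference: with at least 0.2 they were 0.28 and -0.27 at 70% RWC and 0.27 and -0.27 at 10% RWC, and with at least 0.3 they were 0.36 and -0.38, and 0.34 and -0.35. As log2 ratios they were 1.20 and -1.27 at 70% RWC and 1.25 and -1.15 at 10% RWC. These are in another unit and were counted as moved without a comparison. At 10% RWC the share of higher level was 53.2% with at least 0.2, 53.6% with at least 0.3 and 57.8% without regions that overlap the other table. The bodies exceeded the flanks by 10.7 points at 70% RWC and 19.3 at 10% RWC with at least 0.3. The shortest minus the longest length group of genes was -14.8 points at 70% RWC with at least 0.3, -19.9 and -27.2 at 10% RWC with at least 0.2 and 0.3, and -2.33 for genes under 1000 bp against 5000 bp or more. The cause of these moves was not tested beyond their construction. Differences near 0 changed sign with the setting, among them the position difference at 70% RWC (2.06 points with at least 0.3) and the body difference at 70% RWC (-0.293 without overlap with the other table). No paired analysis was possible because each condition has 1 library. Leaving out a replicate and a coverage minimum could not be run, for want of replicates and of coverage. The unknown depth limits every level: a level of 0 or 1 may rest on few reads.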
